A study of Mus musculus with 28 samples.

Results

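Molar tooth germs of wild-type C57BL/6JOlaHsd mice were compared between embryonic days E14.5 and E16.5, here called E14 and E16. At E14 the molar is at the cap stage, and at E16 it is at the bell stage. Each library was made from the RNA of a single first molar germ, dissected with as little surrounding tissue as possible, and no animal was treated or carried a transgene. The comparison takes the 7 E16 and the 7 E14 teeth, 14 of the 28 samples of the series, by the stage given in their labels. The fit behind the tests also held 7 wild-type teeth of the earlier bud stage, E13, which enter its estimate of the spread between teeth. The E14 teeth came from 6 embryos (2 left and 5 right teeth) and the E16 teeth from 5 embryos (4 left and 3 right teeth), so that 1 embryo at E14 and 2 embryos at E16 gave both their teeth.

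In the cap stage the dental epithelium folds around the condensed dental mesenchyme, and a non-dividing cluster of epithelial cells, the primary enamel knot, secretes signals of the Shh, Wnt, Fgf and Bmp families. In the bell stage secondary enamel knots mark the future cusps, the epithelium separates into inner and outer enamel epithelium, stellate reticulum and stratum intermedium, and the mesenchyme divides into dental papilla and dental follicle. Ameloblasts and odontoblasts, which lay down enamel and dentin, differentiate later, and the alveolar bone and its osteoclasts form around the growing germ. A germ is a mixture of these cells with vessels, blood cells and adjoining oral tissue, and in such bulk RNA a change in the number of cells of a type and a change in the RNA per cell cannot be told apart.

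The deposited values are raw read counts per gene, between 23210069 and 25711785 per tooth at E14 and between 17814073 and 27115729 at E16. Markers of the dental epithelium and mesenchyme were present in all 14 teeth, with at least 55.4 CPM of Sp6 (CPM, reads of a gene per 1000000 counted reads after TMM scaling) and at least 82.7 CPM of Msx1. The E16 library of the left tooth of embryo 3 lay apart from the other 6 E16 teeth. In this tooth 16.9% of 10732 genes with a mean of at least 10 CPM at E16 were more than 2-fold away from the median of the other 6 teeth, 111 above and 1707 below, whereas the shares in the other 13 teeth were between 0.0932% and 1.02%. Its deviation followed the G+C content of the transcripts, with a median of 0.49 on the log2 scale in the fifth of genes with the lowest G+C content and of -0.78 in the fifth with the highest. Counts of small noncoding RNAs stood out among the highest, with 6102 CPM of Rn7sk against 528 to 1623 in the other E16 teeth, and 590 CPM of Rny1 against 0.771 to 94.6. The solute carrier Slc15a2 was the single protein-coding gene among the 8 furthest above, at 43.8 CPM against a median of 7.82. Among the 8 genes furthest below were those of the actin-bundling protein Fscn1 (32.2 against 295 CPM), beta-actin Actb (497 against 3936) and the homeobox factor Dlx3 (23.0 against 180.0). The coefficient of variation between E16 teeth beyond counting error was 25.9% with this tooth and 16.6% without it, against 19.6% at E14. Counts over gene groups are therefore given also without this tooth, which is called the deviating tooth. Another E16 tooth, the right tooth of embryo 7 (replicate 5), differed in composition, with 74.1% of its counts in protein-coding genes against 84.7% to 91.2% in the other 13 teeth and 11.4% in the noncoding gene Gm42418 against 1.31% to 3.41%, while 0.177% of its genes were more than 2-fold away from the other E16 teeth. Without replicate 5 of E16 2822 genes rose and 2206 fell.

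**Figure D1:**
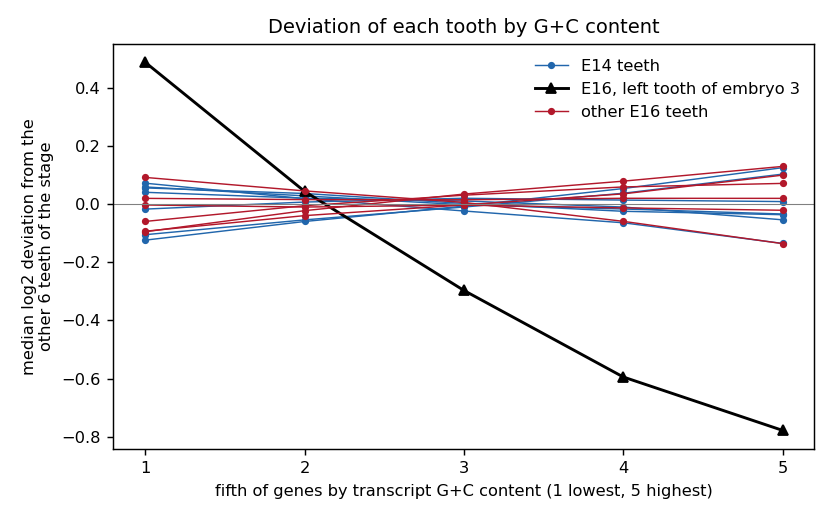
Median log2 deviation of each tooth from the median of the other 6 teeth of its stage (vertical axis), in 5 equal bins of genes by transcript G+C content (horizontal axis); each line is a tooth. The deviating E16 tooth (black triangles) runs from 0.49 to -0.78, and the 13 other teeth lie within 0.14 of 0.

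A gene is said here to have risen or fallen when its edgeR quasi-likelihood adjusted p was below 0.05, and fold changes are E16 over E14 on the log2 scale. Of 19101 genes tested, 2870 (15%) rose and 2500 (13.1%) fell between E14 and E16. Without the deviating tooth 3565 of 19238 genes (18.5%) rose and 3040 (15.8%) fell, and 2725 of the rises and 2356 of the falls were called in both fits, none in opposite directions. The median change of all tested genes was 0.00, and the median size of the called changes was 0.59 on the log2 scale. These shares are the background against which the counts of each gene group below can be read.

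**Figure D2:**
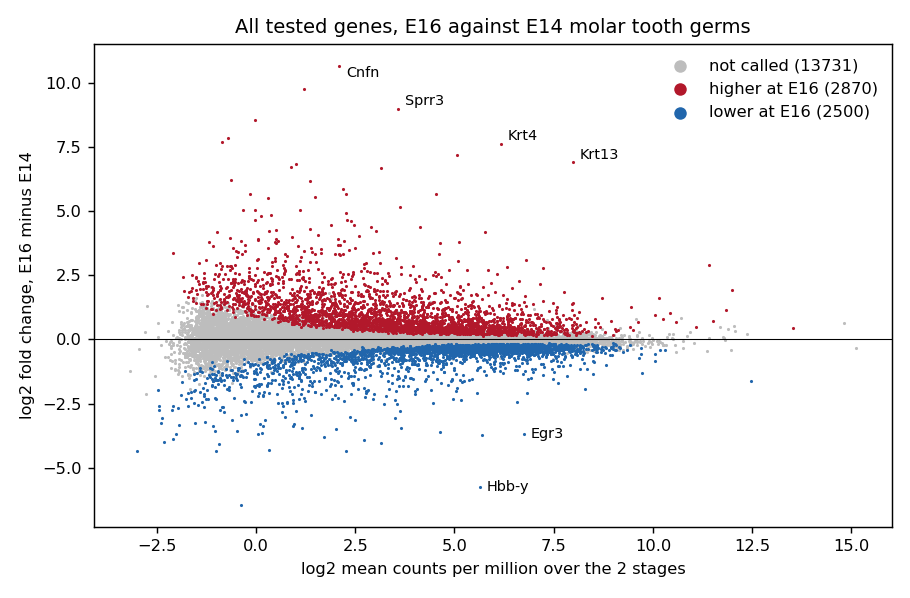
Log2 fold change between E14 and E16 (vertical axis) against the log2 mean CPM of the 2 stages (horizontal axis) for each of 19101 tested genes; red points rose, blue points fell, and grey points were not called. The largest rises at high expression are keratin genes (Krt13 and Krt4), and the largest fall among the genes labelled is the embryonic globin gene Hbb-y.

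Most of the largest rises were in genes of stratified oral epithelium. Among genes that did not overlap between the 7 and 7 teeth and had at least 5 CPM at the higher stage, the 12 with the largest rises were Cnfn, Sprr3, Krt4, Spink5, Krt13, Cyp2f2, Serpinb12, Krt16, Ly6d, Cyp2t4, Ofcc1 and Mmp13. With calls in both fits also required, 835 genes that rose and 833 that fell met this rule. A lack of overlap, given for many genes below, was therefore not rare among called genes. Krt13 and Krt4 form the keratin pair of the suprabasal layers of the oral mucosa. Krt13 was at 2.16, 3.63 and 6.61 CPM at E14 and at 309, 529 and 694 CPM at E16 (lowest, median and highest of the 7 teeth), and it rose 119-fold (log2 fold change 6.89 ± 0.32 (SE), edgeR adjusted p = 1.2e-13). Krt4 was at 0.0441, 0.843 and 1.1 CPM at E14 and at 66.3, 114 and 295 CPM at E16 (log2 fold change 7.63 ± 0.42 (SE), edgeR adjusted p = 1.6e-12). All E16 teeth, the deviating tooth included, were far above all E14 teeth for both keratins. Cnfn, which encodes the cornified envelope protein cornifelin, had 0 counts in all 7 E14 teeth and between 101 and 305 counts in each E16 tooth, which makes it at least 466-fold higher at E16 against a floor of 3 counts over the 7 E14 teeth. Sprr3, another envelope protein, had at most 0.205 CPM at E14 and at least 7.29 CPM at E16. Spink5, a protease inhibitor of cornifying epithelia, rose by 7.20 on the log2 scale, and Ly6d, a surface protein of squamous epithelia, by 5.66.

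As a group, 20 of 21 tested genes of cornified and stratified oral epithelium rose, by edgeR, with and without the deviating tooth, and the median change was 3.09 on the log2 scale. None fell, also by DESeq2 or at an unadjusted p below 0.05 (0 genes). Of the 25 listed genes, 11 had a mean of at least 1 CPM at E14 and 20 at E16. A member near 0 at E14 could hardly fall, so for such members the direction of a call was largely set beforehand. Krt1, a keratin of the spinous layer, was at 4.24, 5.94 and 6.45 CPM at E14 and at 71.9, 84.2 and 172 CPM at E16, with no overlap (log2 fold change 4.19 ± 0.22 (SE), edgeR adjusted p = 8.4e-13). The transglutaminases that cross-link the envelope rose as well (Tgm1 2.35, Tgm3 3.04), as did corneodesmosin Cdsn (6.72) and the desmosomal cadherins Dsc1 (4.21) and Dsg1a (2.69). Lor, the gene of the late envelope protein loricrin, was not called (0.80), and Flg, Ivl, Krt76 and Sprr1b had too few counts to be tested. The risen keratins lie in the 2 keratin clusters of the mouse genome, Krt13 (chr11:100117327-100121566) and Krt16 on chromosome 11 and Krt1, Krt4 (chr15:101918535-101924735), Krt6a and Krt78 on chromosome 15 (GRCm38). Krt16, Krt6a and the Dsg1 genes have near-identical relatives, and how their shared reads were assigned is not stated. The summed level of the 25 genes of this group was 119 to 173 CPM at E14 and 942 to 1909 CPM at E16. How much oral epithelium was left on each germ is not recorded, and its part in the epithelial results that follow was not tested.

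Most transcription factors of the dental epithelium rose. Of 28 tested, 18 rose (64.3%, against 15% of all genes) and 1 fell, and the median change was 0.69, with 19 and 1 without the deviating tooth. Trp63, the p63 factor of stratified epithelia, was at 157, 173 and 208 CPM at E14 and at 276, 359 and 379 CPM at E16, and its teeth did not overlap (log2 fold change 0.94 ± 0.08 (SE), edgeR adjusted p = 3.7e-09). Sp6, the epiprofin gene required for enamel epithelium, rose by 1.40, the chromatin organizer Satb1 by 1.37 and the grainyhead factor Grhl1 by 1.37. Sox2, a marker of epithelial progenitors, was not called (-0.31, edgeR adjusted p = 0.11). Epha7, an ephrin receptor kept in the same list, was the member that fell, with 281 to 391 CPM at E14 and 139 to 198 CPM at E16 (-0.98).

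Cell adhesion genes of epithelia followed the same direction, with 23 of 31 tested rising and none falling by the edgeR test, with or without the deviating tooth (median 0.77). None fell by DESeq2 either, and 0 had an unadjusted p below 0.05 for a fall. Desmosomes, which fasten epithelial cells to each other, held several of the members with the lowest adjusted p. The desmosomal cadherin Dsg3 was at 24.7, 27.7 and 32.3 CPM at E14 and at 78.1, 99.5 and 123 CPM at E16, with no overlap (log2 fold change 1.86 ± 0.13 (SE), edgeR adjusted p = 3.9e-11). Its partner Dsc2 rose by 1.70 and desmoplakin, Dsp, by 0.79. The tight junction gene Cldn1 was at 17.8, 19.6 and 26.7 CPM at E14 and at 57.7, 74.0 and 87.2 CPM at E16 (log2 fold change 1.74 ± 0.12 (SE), edgeR adjusted p = 3.9e-11). E-cadherin, Cdh1, rose by 0.95 and the basal keratin Krt14 by 0.66. The keratins of simple epithelia, Krt8, Krt18 and Krt19, were not called, with changes of 0.06, 0.10 and 0.17.

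**Figure D3:**
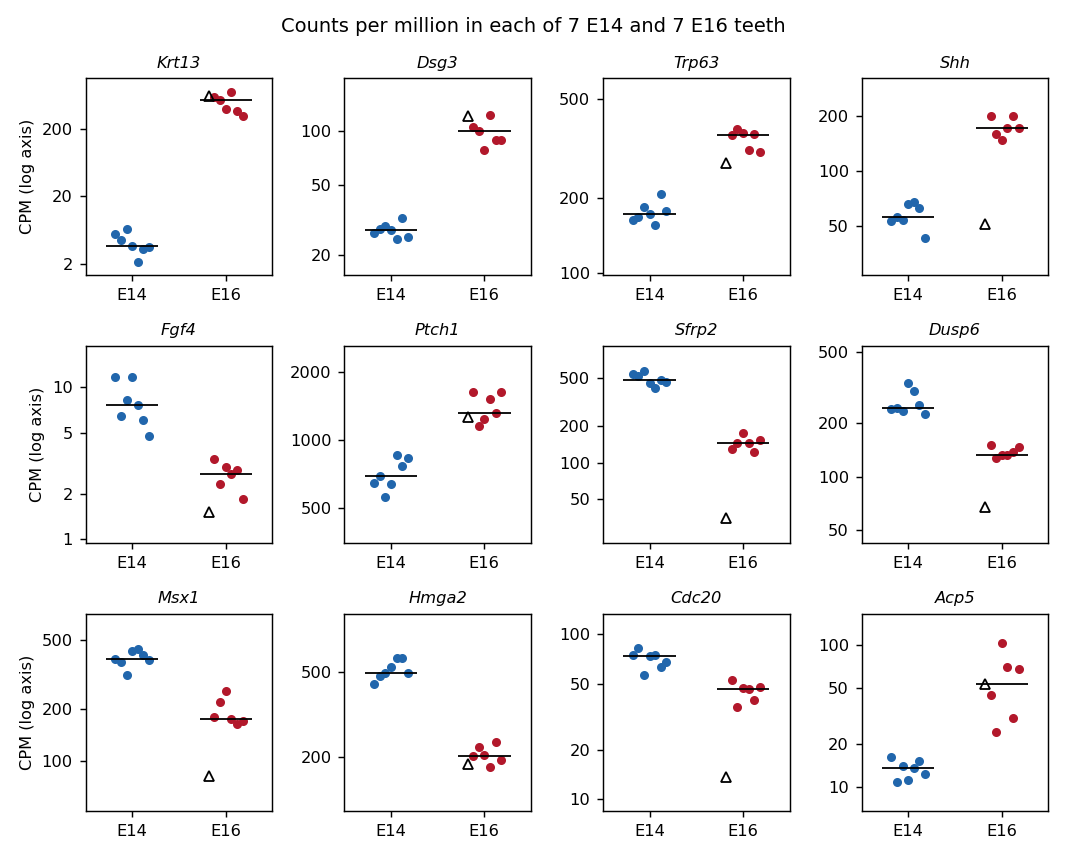
CPM on a log axis in each E14 tooth (blue), each E16 tooth (red) and the deviating E16 tooth (open triangle) for 12 genes, with the median of each stage as a line. Krt13, Dsg3, Trp63, Ptch1 and Acp5 are higher in all E16 teeth, Fgf4, Sfrp2, Dusp6, Msx1, Hmga2 and Cdc20 are lower in all of them, and the deviating tooth lies within the E14 range for Shh.

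The enamel knot list held genes that rose and genes that fell. Of 24 genes tested, 11 rose and 4 fell (13 and 4 without the deviating tooth), and the median change was 0.40. Shh, the Hedgehog ligand of the knot and later of the inner enamel epithelium, was at 42.8, 56.2 and 67.9 CPM at E14 and at 51.1, 171 and 201 CPM at E16. In the deviating tooth Shh was at 51.1 CPM, within the E14 range, and in the other 6 E16 teeth it was at 148 CPM or more, above all E14 teeth (log2 fold change 1.46 ± 0.29 (SE), edgeR adjusted p = 4.5e-04; without the deviating tooth 1.62). Msx2, a homeobox target of Bmp signaling, was at 11.4, 14.9 and 18.5 CPM at E14 and at 18.3, 70.9 and 88.3 CPM at E16, and the deviating tooth alone overlapped with E14 (log2 fold change 2.15 ± 0.21 (SE), edgeR adjusted p = 2.4e-08). Edar, the ectodysplasin receptor, rose by 1.55, Foxi3 by 1.30 and Wnt10a by 0.66. Fgf9 rose by 1.42, with no overlap. The 4 genes that fell were all Fgf ligands of the primary knot or the mesenchyme beneath it. Fgf4 was at 4.80, 7.70 and 11.7 CPM at E14 and at 1.51, 2.71 and 3.39 CPM at E16, with no overlap (log2 fold change -1.68 ± 0.36 (SE), edgeR adjusted p = 9.9e-04). The other 3 were Fgf15 (-2.83), Fgf20 (-1.53) and Fgf3 (-0.94). Cdkn1a, the cell cycle inhibitor p21 expressed in the knot, was not called (0.20), nor were Bmp2 (-0.29) and Wnt10b (-0.03). The Bmp and Wnt inhibitor Sostdc1 and the ligand Bmp4 passed the test without the deviating tooth (0.71 and 0.28) and not with it.

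In the Hedgehog pathway the receptors that are themselves induced by the signal rose, and the coreceptors fell. Ptch1 was at 561, 693 and 862 CPM at E14 and at 1155, 1321 and 1624 CPM at E16, with all E16 teeth above all E14 teeth (log2 fold change 0.96 ± 0.11 (SE), edgeR adjusted p = 2.3e-07). The decoy receptor Hhip, which was at 24.9, 42.1 and 50.6 CPM at E14 and at 81.6, 99.7 and 115 CPM at E16, rose by 1.35. Gli1, a transcription factor that is also a target of the pathway, was at 237, 292 and 317 CPM at E14 and at 263, 309.8 and 339 CPM at E16. The Gli1 ranges overlapped and it was not called (log2 fold change 0.10 ± 0.09 (SE), edgeR adjusted p = 0.4). The ligand-binding coreceptors Cdon (-0.82), Boc (-0.66) and Gas1 (-0.53) fell, each with no overlap. In all, 4 of 18 tested pathway genes rose and 6 fell (6 and 5 without the deviating tooth).

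Wnt ligands moved in both directions. Wnt7a, a ligand of oral and dental epithelium, was at 0.123, 0.361 and 0.661 CPM at E14 and at 2.45, 5.01 and 6.43 CPM at E16 (log2 fold change 3.56 ± 0.44 (SE), edgeR adjusted p = 8.2e-07). Wnt7b rose by 1.25 and Wnt5a, a mesenchymal ligand, by 0.85. Wnt2 fell by 2.44 to at most 1.40 CPM. The receptors Fzd1 (-0.82) and Fzd4 (-0.66) fell, and in all 10 of 32 ligands and receptors tested rose and 7 fell (12 and 9 without the deviating tooth). Wnt inhibitors, most of them secreted, did so too. Sfrp2 was at 417, 479.6 and 574 CPM at E14 and at 34.4, 144 and 177 CPM at E16 (log2 fold change -1.93 ± 0.20 (SE), edgeR adjusted p = 6.6e-08). Its relative Frzb fell by 1.26. Wif1 was at 43.1, 46.6 and 51.2 CPM at E14 and at 58.9, 139 and 156 CPM at E16 (log2 fold change 1.43 ± 0.15 (SE), edgeR adjusted p = 4.4e-08), and Sfrp4 rose by 2.15. Of 17 inhibitors 8 rose and 3 fell (10 and 4 of 18 without the deviating tooth). The inhibitor list shares a member that rose with the list of Wnt targets. Of 18 Wnt target genes 10 rose (13 without the deviating tooth), among them Tcf7 (1.31), Tnfrsf19 (0.98) and Bambi (0.83). None fell by edgeR or DESeq2, and 0 had an unadjusted p below 0.05 for a fall. Axin2, the target most used as a readout, was at 93.6, 107 and 122 CPM at E14 and at 58.4, 109 and 118 CPM at E16, and was not called (-0.06, edgeR adjusted p = 0.74).

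The Fgf pathway showed the lowest median among the signaling lists. Of 33 genes tested 22 fell (66.7%, against 13.1% of all genes) and 4 rose (21 and 6 without the deviating tooth), with a median of -0.59. Besides the knot ligands, Fgf18 fell by 1.48. The feedback genes induced by Fgf signaling fell with them. Dusp6, a phosphatase of the Erk kinase, was at 223, 242 and 335 CPM at E14 and at 67.8, 132 and 150.3 CPM at E16, with no overlap (log2 fold change -1.03 ± 0.14 (SE), edgeR adjusted p = 3.2e-06). The transcription factors Etv4 (-0.90) and Etv5 (-0.95) and the inhibitors Spry1 (-0.66) and Spry4 (-0.66) also fell. The genes that rose were the ligands Fgf9 and Fgf10 (0.38) and the receptors Fgfr2 and Fgfr3 (0.47). Fgfr2 was at 248, 274 and 307 CPM at E14 and at 410.2, 456 and 544 CPM at E16 (log2 fold change 0.79 ± 0.08 (SE), edgeR adjusted p = 4.5e-08). Its annotated range in GRCm38 overlaps with many neighbouring genes, through long transcripts, and reads shared with them cannot be told apart from its own.

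Among the Bmp, Tgfb and activin genes, 11 of 44 rose and 7 fell (18 and 8 without the deviating tooth), near the background for falls. The activin subunits moved in opposite directions. Inhbb was at 0.866, 1.5 and 2.07 CPM at E14 and at 7.78, 16 and 19.7 CPM at E16 (log2 fold change 3.41 ± 0.23 (SE), edgeR adjusted p = 3.3e-11). Inhba, the mesenchymal subunit, was at 216, 257 and 329 CPM at E14 and at 116, 146 and 165 CPM at E16 (log2 fold change -0.89 ± 0.10 (SE), edgeR adjusted p = 9.9e-08). Neither subunit overlapped between the stages. The extracellular Bmp modulator Bmper was at 46.6, 64.6 and 69.4 CPM at E14 and at 9, 12.5 and 13.9 CPM at E16, and it fell by 2.37. The antagonist Grem1 fell by 2.17, and the ligand Bmp3, a follicle gene, rose by 1.74. The Bmp target Id1 was not called (0.10). In the Eda pathway 8 of 17 genes rose (9 without the deviating tooth), and none fell by edgeR, by DESeq2 or at an unadjusted p below 0.05 (0 genes). The ligand Eda rose by 0.58 and the adaptor Edaradd by 0.66. Notch2 rose by 0.72 and the Notch target Hey2 by 0.71, while the Notch targets Hes1 (-0.58) and Hey1 (-0.67) fell. In all 2 of 20 Notch genes rose (10%, against 15% of all genes) and 4 fell (20%, against 13.1%). Without the deviating tooth 6 rose and 4 fell.

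Retinoic acid genes moved both ways, also among enzymes of the same step. Aldh1a3, which makes retinoic acid, was at 8.17, 10.6 and 13.4 CPM at E14 and at 39.1, 70.5 and 88.0 CPM at E16 (log2 fold change 2.72 ± 0.16 (SE), edgeR adjusted p = 4.8e-12). Cyp26c1, which degrades it, was at 5.24, 7.24 and 8.30 CPM at E14 and at 21.3, 42.4 and 58.1 CPM at E16 (log2 fold change 2.46 ± 0.26 (SE), edgeR adjusted p = 8.5e-08). Dhrs3, a retinal reductase, rose by 1.45. Cyp26b1, another degrading enzyme, fell by 1.52, and Rdh10, an enzyme of synthesis, fell by 0.33. Aldh1a2, which makes retinoic acid as Aldh1a3 does, fell with and without the deviating tooth. None of the 4 genes Aldh1a3, Cyp26c1, Dhrs3 and Cyp26b1 overlapped between the stages, which was not rare among called genes. Of 18 genes tested, 8 rose and 5 fell (9 and 5 without the deviating tooth), and 2 fell when replicate 6 of E14 was left out and 3 when replicate 7 of either stage was.

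**Figure D4:**
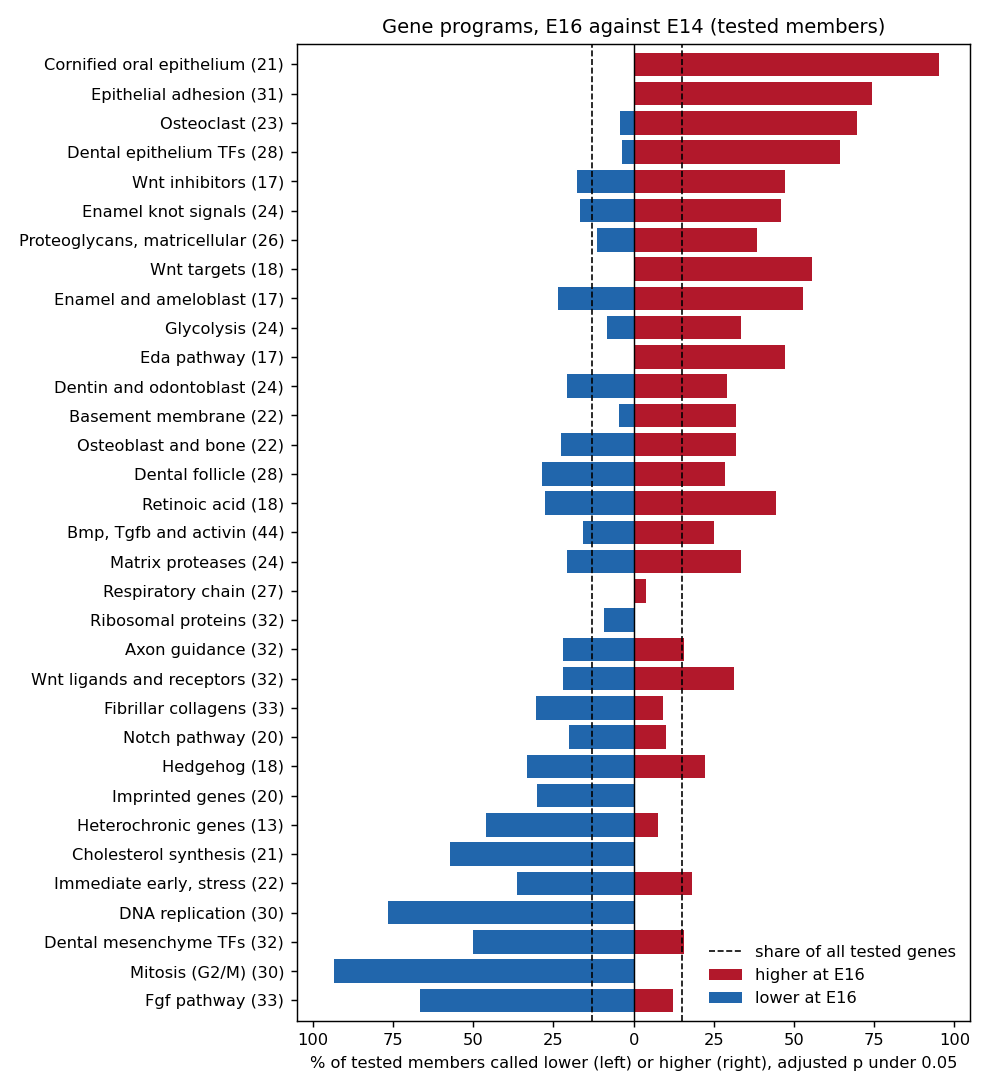
Share of the tested members of each gene list that rose (red, to the right) or fell (blue, to the left), in percent, ordered by the median change; the number of tested members is in parentheses and the dashed lines are the shares of all tested genes (15% and 13.1%). Epithelial lists lie at the top, with 95.2% of cornified epithelium genes rising, and mitosis genes (93.3%) and Fgf genes (66.7%) fell at the bottom.

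Among transcription factors of the dental mesenchyme, falls outnumbered rises. Of 32 tested, 16 fell, 11 were not called and 5 rose (15.6%, near the background of 15%). Without the deviating tooth 16 fell and 6 rose. The median change was -0.41. Prrx1, a homeobox factor of craniofacial and limb mesenchyme, was at 1069, 1200.1 and 1348 CPM at E14 and at 432, 492 and 542 CPM at E16, with no overlap (log2 fold change -1.30 ± 0.07 (SE), edgeR adjusted p = 2.7e-12). Msx1, required for the tooth to pass the bud stage, was at 317, 392 and 444 CPM at E14 and at 82.7, 176 and 254 CPM at E16 (log2 fold change -1.14 ± 0.15 (SE), edgeR adjusted p = 1.9e-06). Without the deviating tooth the fall of Msx1 was -1.0. Pax9, another factor required at the bud stage (-0.78), Tfap2b (-1.16) and Lhx8 (-0.92) fell, with no overlap. Barx1, a marker of molar mesenchyme, was near the threshold (log2 fold change -0.43 ± 0.16 (SE), edgeR adjusted p = 0.048), and its call was lost under 17 of 25 alternatives, most of them leaving out 1 other tooth, while without the deviating tooth it was -0.27 (edgeR adjusted p = 0.0076). The members that rose were led by Tfap2a (1.0), Foxf2 (0.79) and Twist2 (0.58). Runx2, the master factor of bone, was at 336, 417 and 491 CPM at E14 and at 349, 480.0 and 566 CPM at E16, and passed the test without the deviating tooth (log2 fold change 0.32 ± 0.09 (SE), edgeR adjusted p = 0.0061) and not with it.

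Genes of cell division fell, each by a small amount. Of 30 genes of the G2 phase and mitosis, 28 fell and none rose by edgeR (29 and none without the deviating tooth), and the median change was -0.44. DESeq2 called 28 lower and none higher, and 0 had an unadjusted p below 0.05 for a rise. Cdc20, an activator of the anaphase complex, was at 56.9, 73.5 and 83.0 CPM at E14 and at 13.6, 46.9 and 53.2 CPM at E16 (log2 fold change -0.79 ± 0.18 (SE), edgeR adjusted p = 0.0019). The deviating tooth was the lowest for Cdc20, and the change without it was -0.62. Mki67, the antigen Ki-67 of cycling cells, was at 1143, 1304 and 1527 CPM at E14 and at 711, 1016 and 1248 CPM at E16, with overlap (log2 fold change -0.42 ± 0.10 (SE), edgeR adjusted p = 0.0025). Top2a, the topoisomerase of dividing cells (-0.40), Birc5, the gene of survivin (-0.50), the centromere histone Cenpa (-0.52) and Anln, the gene of anillin (-0.46), fell, none of them with overlap. DNA replication genes fell in 23 of 30 cases (25 without the deviating tooth, and 15 when the E14 and E16 libraries were fitted alone), with a median of -0.38. None rose by edgeR or DESeq2, and 0 had an unadjusted p below 0.05 for a rise. The ribonucleotide reductase subunit Rrm2 (-0.78), thymidine kinase Tk1 (-0.56) and the helicase subunit Mcm2 (-0.45) were among those that fell. Pcna, the polymerase clamp, was not called (-0.07). None of 7 inhibitors of cyclin-dependent kinases was called by edgeR or DESeq2 with all teeth, where 1 had an unadjusted p below 0.05 in each direction, and without the deviating tooth Cdkn1b, the p27 gene, rose (0.25). The 1 inhibitor then called lower was Cdkn3, a phosphatase of these kinases (-0.50).

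Promoters of mitosis genes are known for CCAAT boxes, bound by the factor NF-Y, and for the cell cycle homology region (CHR). For display, 4 mitosis genes were taken with both elements in the 120 bases before the start of transcription and 1 promoter in the RefSeq table. These genes had the steepest falls among those considered, and the choice did not take in every chromosome. The 120 bases of each are shown. They are written 5′ to 3′ on the strand of the gene, in GRCm38.p6, with CCAAT (or its complement ATTGG) and the CHR (TTTGAA or TTCGAA, or the complement TTCAAA) in capitals.
Cdc20 (chr4:118437344-118437463, minus strand): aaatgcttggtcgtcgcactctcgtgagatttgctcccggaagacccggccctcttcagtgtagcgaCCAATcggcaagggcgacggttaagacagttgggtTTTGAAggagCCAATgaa
Kif11 (chr19:37376262-37376381, plus strand): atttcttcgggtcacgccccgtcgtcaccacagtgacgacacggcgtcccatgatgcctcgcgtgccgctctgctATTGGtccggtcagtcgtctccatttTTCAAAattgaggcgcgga
Cdk1 (chr10:69352913-69353032, minus strand): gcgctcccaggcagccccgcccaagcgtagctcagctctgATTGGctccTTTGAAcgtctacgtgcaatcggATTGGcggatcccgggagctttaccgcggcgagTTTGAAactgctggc
Top2a (chr11:99024190-99024309, minus strand): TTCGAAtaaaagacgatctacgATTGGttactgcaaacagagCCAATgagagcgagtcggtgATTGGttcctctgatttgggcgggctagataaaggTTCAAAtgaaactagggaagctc
The CHR nearest to the start begins 18 bases before it in Cdc20, 19 in Kif11, 15 in Cdk1 and 23 in Top2a, and a CCAAT box begins 53, 45, 48 and 58 bases before it. In the 250 bases before the start, on either strand, CCAAT was found in 22 of 27 promoters of the listed mitosis genes (81.5%) and in 33.8% of 32851 promoters of all genes. The CHR was found in 9 of the 27 (33.3%) and in 17.1% of all. The changes of the genes shown were -0.79 (Cdc20), -0.51 (Kif11), -0.49 (Cdk1) and -0.40 (Top2a) on the log2 scale. A match is a run of letters and was not tested for binding.

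Replication genes are known as targets of E2F factors. The E2F motif (TTTCCCGC or TTTGGCGC on either strand) was in 6 of 29 promoters of the listed replication genes (20.7%) and in 1.30% of all promoters. It is shown in capitals in 2 called genes that hold it within 120 bases of the start.
Gins3 (chr8:95633439-95633558, plus strand): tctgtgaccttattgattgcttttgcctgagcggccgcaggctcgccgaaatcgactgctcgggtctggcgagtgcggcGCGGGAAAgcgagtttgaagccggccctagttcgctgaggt
Mcm6 (chr1:128359706-128359825, minus strand): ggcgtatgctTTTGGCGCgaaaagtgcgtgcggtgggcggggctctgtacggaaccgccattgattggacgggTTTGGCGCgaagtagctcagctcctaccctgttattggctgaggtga
Gins3, a subunit of the GINS helicase complex, fell by 0.41, and Mcm6, a subunit of the Mcm helicase, fell by 0.36.

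Cholesterol synthesis genes fell too, 12 of 21 with and without the deviating tooth (median -0.33). None rose by edgeR or DESeq2, and 0 had an unadjusted p below 0.05 for a rise. The demethylase Cyp51 was at 89.9, 97.2 and 108 CPM at E14 and at 62.7, 65.9 and 69.9 CPM at E16, with no overlap (log2 fold change -0.56 ± 0.06 (SE), edgeR adjusted p = 6.2e-08). Squalene epoxidase, Sqle, fell by 0.49. The promoters of these genes also held CCAAT boxes, in 15 of 18 promoters and all 15 genes with an entry, against 37.5% of all genes. A motif of sterol response elements, searched by the letters TCACNCCAC, was in 1 of the 18 (5.56%) and in 1.05% of all promoters. The box is shown in capitals in the 120 bases before the start for 3 called genes. Among the genes considered that hold it in this window and have 1 promoter in the RefSeq table, these had the steepest falls. Here too the choice did not take in every chromosome.
Cyp51 (chr5:4104698-4104817, minus strand): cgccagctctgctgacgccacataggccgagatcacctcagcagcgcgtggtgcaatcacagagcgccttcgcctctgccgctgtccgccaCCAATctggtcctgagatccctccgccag
Hsd17b7 (chr1:169969206-169969325, minus strand): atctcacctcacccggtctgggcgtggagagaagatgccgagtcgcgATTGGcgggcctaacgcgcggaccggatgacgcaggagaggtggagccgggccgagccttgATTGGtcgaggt
Msmo1 (chr8:64733579-64733698, minus strand): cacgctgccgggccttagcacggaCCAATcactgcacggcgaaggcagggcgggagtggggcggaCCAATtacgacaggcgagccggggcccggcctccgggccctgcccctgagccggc
Hsd17b7 fell by 0.52 and Msmo1 fell by 0.35, both enzymes of the later steps from lanosterol.

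The largest falls included an embryonic globin gene and genes of neurons. The 12 largest falls that met the same rule as the rises were in Hbb-y, Caln1, Nptx2, Tmem132b, Nefl, Egr3, Nr2f1, Anks4b, Syn1, Scx, Slc5a7 and Dlgap1. Hbb-y, the embryonic beta globin of primitive red cells, was at 69.9, 102 and 109 CPM at E14 and at 1, 1.54 and 2.66 CPM at E16 (log2 fold change -5.76 ± 0.19 (SE), edgeR adjusted p = 3.1e-16). Hba-x, the embryonic alpha globin, fell by 3.29. The adult-type Hbb-bt was at 33.2, 43.0 and 58.6 CPM at E14 and at 22.8, 36.4 and 50.4 CPM at E16 and was not called (-0.33), and Alas2, the heme enzyme of red cells, was not called either (-0.33). Of 12 tested red cell genes 3 fell and 9 were not called (3 fell and 1 rose without the deviating tooth). The summed level of the 14 listed was 125 to 194 CPM at E14 and 44.8 to 122 CPM at E16. This sum includes Hbb-y, with medians of 102 and 1.54 CPM. Hmga2, a chromatin protein of embryonic cells, was at 438, 494 and 580.0 CPM at E14 and at 179, 202 and 234 CPM at E16, with no overlap (log2 fold change -1.34 ± 0.10 (SE), edgeR adjusted p = 1.8e-10). Its partners in the Lin28 and let-7 pathway, Igf2bp1 (-1.26), Igf2bp3 (-0.49) and Lin28b (-1.14), fell. In that list 6 of 13 genes fell and 1 rose, with or without the deviating tooth. Of 20 imprinted growth genes 6 fell and none rose by edgeR (0 at an unadjusted p below 0.05), and DESeq2 called 1 higher. Without the deviating tooth edgeR called 6 lower and 1 higher, Mest (0.35), a growth gene expressed from the paternal allele. Peg10 was at 252, 291 and 383 CPM at E14 and at 17.6, 101 and 114 CPM at E16 (log2 fold change -1.70 ± 0.24 (SE), edgeR adjusted p = 5.4e-06) and Dlk1 fell by 1.33. Igf2 (-0.44) and H19 (0.05) were not called.

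Several of the largest falls were in genes of neurons. Nptx2, a pentraxin of synapses, was at 12.8, 15.9 and 23.1 CPM at E14 and at 0.283, 1.05 and 1.55 CPM at E16 (log2 fold change -4.04 ± 0.30 (SE), edgeR adjusted p = 2.5e-10). Syn1, a synaptic vesicle protein (-3.45), the choline transporter Slc5a7 (-3.07) and the neurofilament gene Nefl (-3.80) fell by more than 2 on the log2 scale. The neuron markers Elavl4 and Nefm fell too, with and without the deviating tooth. Genes of neurons also rose. Snap25, a protein of vesicle fusion, was at 0.969, 1.21 and 2.34 CPM at E14 and at 6.92, 7.61 and 12.1 CPM at E16 (log2 fold change 2.53 ± 0.27 (SE), edgeR adjusted p = 9.1e-08), and Scg2 and Stmn2 rose by 1.78 and 0.92. The pan-neuronal tubulin Tubb3 was at 8.95, 12.4 and 16.1 CPM at E14 and at 4.43, 12.1 and 16.6 CPM at E16 and not called (-0.06). Of 10 tested neuron markers 3 rose and 3 fell (3 and 4 without the deviating tooth), and the summed level of the 14 listed was 43.4 to 57.8 CPM at E14 and 38.3 to 56.5 CPM at E16. Among neurotrophic and guidance genes 5 of 32 rose (15.6%, near the 15% of all genes) and 7 fell (21.9%, against 13.1%). Without the deviating tooth 7 of 33 rose and 9 fell. The Gdnf receptor Ret fell by 2.31 and its ligand Gdnf fell by 0.86, and the receptors Ntrk2 (1.41) and Gfra1 (1.08) rose. The guidance cue Sema3a, which keeps nerve fibres out of the germ, was at 215, 229.6 and 269 CPM at E14 and at 213, 230.2 and 269 CPM at E16 and was not called (0.02).

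Genes of mineralized tissue gave a mixed account. The enamel genes Amelx and Mmp20 were at or near 0 in all 14 teeth. Amelx had at most 0.233 CPM and Mmp20 had 0 counts, and the dentin gene Dspp reached 0.512 CPM at most. Counts of 0 in all 7 teeth of a stage allow a level of up to 0.0176 CPM over E14 (3 counts). Ambn, ameloblastin, was at 2.81, 5.70 and 12.9 CPM at E14 and at 7.40, 15.8 and 18.2 CPM at E16, with overlap, and it rose by 1.17. The hemidesmosome collagen Col17a1 (1.09), laminin Lama3 (0.89) and tuftelin Tuft1 (1.0) rose, while Odam (-1.14) and Fam20a (-0.79) fell. Of 17 enamel and ameloblast genes 9 rose and 4 fell (10 and 4 without the deviating tooth). Of 24 dentin and odontoblast genes 7 rose and 5 fell, and without the deviating tooth 12 rose and 5 fell. Phex, an endopeptidase of mineralizing cells, was at 14.1, 18 and 24.1 CPM at E14 and at 1.77, 3.69 and 5.04 CPM at E16, with no overlap (log2 fold change -2.35 ± 0.17 (SE), edgeR adjusted p = 1.7e-10). Vdr, the vitamin D receptor, rose by 1.22 and alkaline phosphatase, Alpl, by 0.78, a call that was lost with the embryo number as a block and with the teeth of an embryo summed. Col1a1, the main collagen of dentin and bone, was at 2897, 3204 and 4451 CPM at E14 and at 1065, 5865 and 6222 CPM at E16. The deviating tooth had the lowest Col1a1 of the 14, and the gene was called without it (log2 fold change 0.72 ± 0.10 (SE), edgeR adjusted p = 3.5e-06) and not with it.

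Bone genes varied widely between the E14 teeth. The bone sialoprotein gene Ibsp was at 18.5, 51.7 and 536 CPM at E14 and at 55.3, 83.2 and 124 CPM at E16, so that 1 E14 tooth exceeded all others, and it was not called (-0.51). Sp7, the osteoblast factor osterix, was not called (0.07), and 7 of 22 osteoblast genes rose while 5 fell (10 and 6 of 23 without the deviating tooth). Omd, the bone proteoglycan osteomodulin, was at 11.2, 15.5 and 20.3 CPM at E14 and at 41.3, 55.1 and 90.5 CPM at E16, with no overlap (log2 fold change 1.94 ± 0.18 (SE), edgeR adjusted p = 9.2e-09). Osteoclast genes rose in 16 of 23 cases and 1, Fos, fell (17 and 1 without the deviating tooth, and 0 fell without replicate 7 of E14), with a median of 0.69. Acp5, the tartrate-resistant phosphatase, was at 10.9, 13.6 and 16.3 CPM at E14 and at 24.6, 53.5 and 104 CPM at E16, with no overlap (log2 fold change 2.07 ± 0.26 (SE), edgeR adjusted p = 1.1e-06). Ctsk, the collagen protease of osteoclasts, rose by 1.75 and the proton pump subunit Atp6v0d2 by 1.71. The ligand Tnfsf11, which drives osteoclast formation, was not called (0.43), and neither was its decoy Tnfrsf11b (-0.25). The collagenase Mmp13 was at 0, 0.763 and 1.1 CPM at E14 and at 5.61, 22.7 and 38.5 CPM at E16 (log2 fold change 5.16 ± 0.48 (SE), edgeR adjusted p = 9.1e-09). Dental follicle genes moved both ways, 8 up and 8 down of 28 (11 and 9 without the deviating tooth). Pthlh, the parathyroid hormone related peptide needed for eruption, was at 12.4, 13.53 and 27.8 CPM at E14 and at 15.2, 43.0 and 57.3 CPM at E16 and rose by 1.23, Spon1 rose by 1.17 and Col14a1 by 1.78. Cxcl12 fell by 0.96 and the tendon and ligament factor Scx fell by 3.14. Scx lies within Bop1 on the opposite strand, and Omd and Ogn lie within Cenpp. Nefl overlaps Nefm, Syn1 overlaps Araf and Timp1, and whether the counting used strand is not stated.

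In the extracellular matrix, several proteoglycans rose. Versican, Vcan, was at 2037, 2168 and 2453 CPM at E14 and at 3399, 3557 and 3870.0 CPM at E16, with no overlap (log2 fold change 0.70 ± 0.08 (SE), edgeR adjusted p = 2.9e-07). Decorin, Dcn, rose by 0.80, osteoglycin, Ogn, by 0.97 and lumican, Lum, by 0.63, whereas Prelp fell by 1.6 and tenascin C, Tnc, fell by 0.60. Of 26 proteoglycan and matricellular genes 10 rose and 3 fell (12 and 4 of 27 without the deviating tooth). The tendon matrix protein Thbs4 was at 16.7, 19.5 and 23.3 CPM at E14 and at 34.1, 166 and 180.2 CPM at E16 (log2 fold change 2.83 ± 0.36 (SE), edgeR adjusted p = 1.5e-06). Of 33 genes of fibrillar collagens and their processing 3 rose and 10 fell, and without the deviating tooth 7 rose and 9 fell. Only 1 of them rose when replicate 5 of E16 or replicate 2 of E14 was left out. Col2a1, the collagen of cartilage, was at 56.0, 64.2 and 118 CPM at E14 and at 6.41, 18.8 and 23.3 CPM at E16 (log2 fold change -2.10 ± 0.20 (SE), edgeR adjusted p = 1.8e-08). The summed level of the 18 cartilage markers was 268 to 465 CPM at E14 and 303 to 479 CPM at E16, and 7 of 13 rose, among them Sox9 (1.19), Sox5 (1.61), Col9a3 (1.93) and Matn4 (2.52), with 3 falling (1 without replicate 7 of E14, and 7 rising and 2 falling of 14 without the deviating tooth). Basement membrane genes gave 7 rises of 22 with all teeth and 15 without the deviating tooth, and 1 fall in both. Lama1 was at 19.6, 24.5 and 26.2 CPM at E14 and at 36.5, 61.2 and 78.4 CPM at E16, with no overlap, and rose by 1.32, and the collagen chains Col4a5 (0.69) and Col4a6 (0.90) rose with it. Col4a1 was called without the deviating tooth (0.22) and not with it (0.04). Of 24 matrix proteases and their inhibitors 8 rose and 5 fell (10 and 5 without the deviating tooth).

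Some macrophage and mast cell markers rose, and few endothelial markers were called. Of 18 endothelial markers 1 rose, the von Willebrand factor gene Vwf (0.74; 0.60 and not called without replicate 7 of E16), and 6 rose without the deviating tooth, in which the summed level was 299 CPM against 734 or more in the other E16 teeth. Of 11 pericyte and smooth muscle markers 4 rose and 2 fell (5 and 2 without the deviating tooth), with Kcnj8 at 8.82, 9.56 and 11.4 CPM at E14 and at 12, 33.4 and 36.9 CPM at E16 (log2 fold change 1.68 ± 0.20 (SE), edgeR adjusted p = 5.2e-07) and Abcc9 1.08, while Pdgfrb, which the dental mesenchyme also expresses, fell by 0.70. Macrophage markers rose in 8 of 18 cases and in 13 without the deviating tooth, and none fell by edgeR, by DESeq2 or at an unadjusted p below 0.05 (0 genes). Their summed level was 120.4 to 158 CPM at E14 and 160.2 to 254 CPM at E16. Csf1r, the receptor of the macrophage and osteoclast growth factor, was at 20.8, 21.6 and 26.4 CPM at E14 and at 19.6, 39.0 and 54.7 CPM at E16 (log2 fold change 0.81 ± 0.17 (SE), edgeR adjusted p = 7.8e-04). The deviating tooth was the lowest E16 tooth for Csf1r and the only one that was not above all E14 teeth. Of 6 tested mast cell and lymphoid markers 4 rose, with and without the deviating tooth. The defining markers S100a8 and Cd3e of this list were below 1 CPM on average. Mast cell proteases rose from low levels (Cma1 1.67, Cpa3 1.28), with no overlap. The part of these cells in the osteoclast result was not tested.

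**Figure D5:**
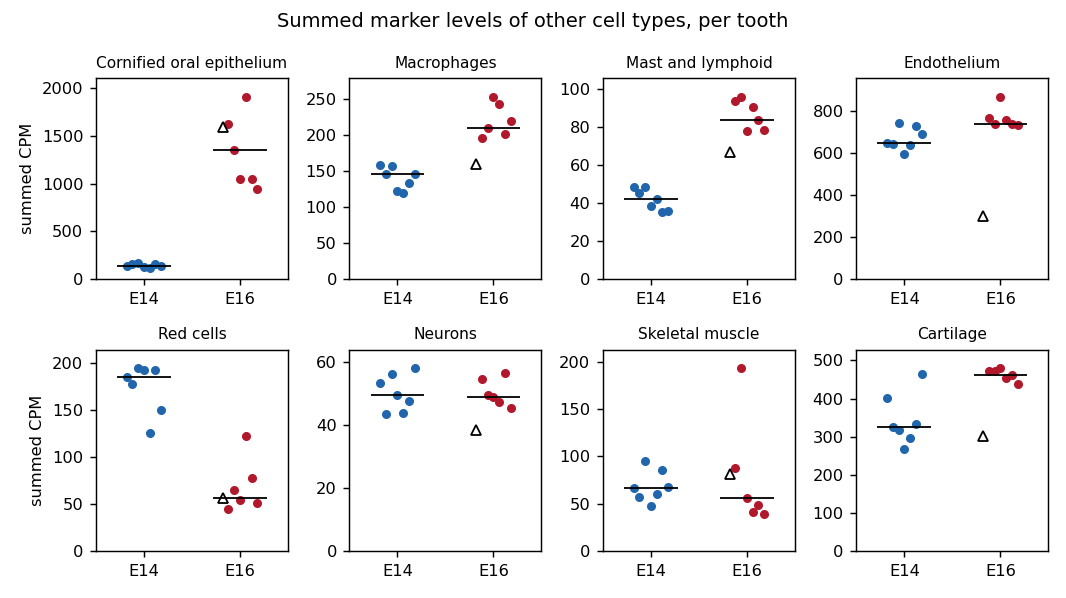
Summed CPM of the markers of 8 other cell types in each E14 tooth (blue), E16 tooth (red) and the deviating E16 tooth (open triangle), with stage medians as lines and axes from 0. Cornified epithelium, macrophage and mast cell markers are higher in all E16 teeth and the red cell sum, which includes Hbb-y, is lower, while neuron and muscle markers overlap between the stages.

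Markers of other tissues were also examined. Defining markers of pigment cells (Tyr and Dct) and salivary gland (Aqp5) were below 1 CPM on average. So were Myod1 and Myog of skeletal muscle, Pparg and Fabp4 of adipocytes and Hbb-bh1 of red cells. Of the pigment cell markers 1 of 2 tested rose, of the salivary gland markers 1 of 3 rose and 1 fell, and of the adipocyte and tendon markers 2 of 6 rose and 1 fell (3 and 1 without the deviating tooth, with the counts of both other groups unchanged by it). Of 16 skeletal muscle markers Myod1 alone was called, lower (-2.27), and its call was lost without replicate 5, 6 or 7 of E16 or replicate 3, 5 or 7 of E14. 1 E16 tooth had a summed level of the 21 listed markers of 193 CPM against 94.9 CPM at most at E14. Schwann cell markers gave 4 rises and 1 fall of 14 with or without the deviating tooth, and no call for Sox10, a defining gene (-0.34). Of 25 regional Hox genes Hoxd8 alone had enough counts to be tested, and it rose, with 0.430 to 1.63 CPM at E14 and 1.27 to 2.84 CPM at E16 (1.38).

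Immediate early genes, which respond within minutes to growth factors or to handling, differed both between and within stages. Egr3 was at 127, 199 and 274 CPM at E14 and at 9, 16.1 and 20.4 CPM at E16 (log2 fold change -3.68 ± 0.26 (SE), edgeR adjusted p = 8.2e-11). Egr2 fell by 2.50, and neither of these overlapped. Fos was at 3.66, 36.4 and 191 CPM at E14 and at 7.61, 13.4 and 24.9 CPM at E16, an E14 range that spanned the whole E16 range (log2 fold change -1.91 ± 0.61 (SE), edgeR adjusted p = 0.02; -1.06 and not called without replicate 7 of E14). Egr1 was at 41.7, 94.3 and 496 CPM at E14 and at 26.5, 39.6 and 63.9 CPM at E16 and fell by 2.09. The heat shock gene Hspb1 rose by 1.61 and the Fos relative Fosl2 by 0.95. In all 8 of 22 fell and 4 rose (8 and 6 without the deviating tooth). How long each tooth was handled before storage is not recorded, and its part was not tested.

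Genes of energy metabolism split by pathway. Of 24 genes of glycolysis and glucose uptake 8 rose and 2 fell, and 13 and 2 without the deviating tooth. The hexokinase Hk2 was at 53.9, 60.7 and 68.8 CPM at E14 and at 43.1, 112 and 133 CPM at E16 (log2 fold change 0.79 ± 0.15 (SE), edgeR adjusted p = 2.2e-04). Pdk1, a kinase of pyruvate dehydrogenase, rose by 0.62 and Bnip3 by 0.91, with no overlap, while the glucose transporter Slc2a3 fell by 0.51. Ldha was not called (-0.01). Of 27 respiratory chain genes Ndufa2 alone was called, higher (0.50), and it was not called without the deviating tooth, replicate 3 or 4 of E16 or replicate 2, 4 or 5 of E14. Of 32 ribosomal protein genes 3 fell, as they did without the deviating tooth, and leaving out any other single tooth left a count of 0 to 3. The median change was -0.07. Of 9 tested genes of the mitochondrial genome 1 rose (1 without the deviating tooth, and 0 without replicate 5 of E16).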

How the data were processed

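RNA of single tooth germs, from separate embryos except where both teeth of an embryo were taken, was sequenced with 1 library per tooth, so that the spread between replicates covers teeth and, in part, embryos. The authors removed low-quality reads (FastQC, AfterQC, Trimmomatic), used STAR for alignment to GRCm38 with Ensembl release 90, and deposited whole-number HTSeq read counts per gene with no normalization. The strand setting and the treatment of reads shared between genes are not given in the sources used here. A second deposited table of estimated counts holds no E14 teeth and was not used here.

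Counts were tested with edgeR (version 4.0.16, R 4.3.3) by the quasi-likelihood F-test with TMM scaling and filterByExpr, in a single fit of the 21 E13, E14 and E16 libraries with stage as the factor, and p-values were adjusted over all tested genes after Benjamini and Hochberg with a threshold of 0.05. SE is the size of the log2 fold change divided by the square root of F. In simulated counts with 200 changed genes among 18813, the fit recovered 68% of 50 genes changed 1.5-fold, 90% at 2-fold and 100% at 4-fold and 8-fold, with 11 false calls of 190. The simulated counts were drawn independently for each library, with a spread set by expression level. They held no deviating tooth and no teeth of the same embryo, so these rates need not apply to the real teeth. Genes were named by rule: the 12 largest rises and the 12 largest falls called with and without the deviating tooth, with a mean of 5 CPM and no overlap; in each of 48 gene lists the marked genes and the 3 called genes with the lowest adjusted p in each direction; and the 8 genes furthest above and below in the deviating tooth. Cdc20, Cdk1, Kif11, Gins3, Mcm6, Hsd17b7, Msmo1, Cdkn3, Mest, Cdsn, Dsc1, Dsg1a, Dsp, Etv4, Etv5, Spry1, Tcf7, Foxi3, Krt8, Krt18, Krt19, Krt6a, Krt78, Tgm1, Tgm3, Lor and the untested cornified genes were chosen after their values were seen. Some genes that the rule names are not reported here. The comparison and the gene lists were chosen with earlier results of these data known. Promoter sequences are from RefSeq (GRCm38.p6), which had an entry for 26 of 30 mitosis, 24 of 30 replication and 15 of 21 cholesterol genes. Alternatives were limma voom with sample quality weights (limma 3.58.1), DESeq2 (1.42.0), other scalings and filters, side, embryo and 2-stage fits, and leaving out each tooth. Replicates are numbered in the order of the samples, and the deviating tooth is replicate 1 of E16.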

Additional observations from a re-analysis of the deposited data

Results flagged for a closer look

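For each gene given with a value in the text, the gap between the highest or lowest tooth of a stage and its nearest neighbour was divided by the range of the 7 teeth. It exceeded Dixon's 95% critical value for 7 values in 71 of 437 groups of teeth, where chance alone gives about 1 in 20. Of these, 55 were at E16 and 16 at E14, and the deviating tooth was the outlying tooth in 50 of them.

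The deviating tooth lay below the other E16 teeth for Abcc9 (0.695), Alas2 (0.588), Alpl (0.687), Axin2 (0.744), Barx1 (0.675), Bmp2 (0.574), Cdc20 (0.575), Cdh1 (0.772), Col1a1 (0.657), Col2a1 (0.625), Col4a1 (0.785), Dsp (0.653), Dusp6 (0.71), Egr2 (0.616), Etv5 (0.812), Fgf3 (0.643), Foxf2 (0.684), Foxi3 (0.569), Frzb (0.704), Fzd1 (0.774), Fzd4 (0.589), Hes1 (0.705) and Hk2 (0.73). It also lay below them for Hoxd8 (0.598), Inhbb (0.58), Kcnj8 (0.835), Lama3 (0.658), Mcm2 (0.844), Mest (0.707), Msx2 (0.625), Notch2 (0.787), Ntrk2 (0.745), Pdgfrb (0.623), Peg10 (0.831), Rrm2 (0.797), Sfrp2 (0.623), Shh (0.645), Sox9 (0.664), Spon1 (0.604), Spry1 (0.773), Tcf7 (0.682), Thbs4 (0.586), Twist2 (0.662), Wif1 (0.591), Wnt10a (0.608) and Wnt5a (0.604). It lay above them for Cdk1 (0.777), Lum (0.659), Ndufa2 (0.601) and Spink5 (0.631). Another E16 tooth was highest for Anks4b (0.579, replicate 3), Fgf20 (0.66, replicate 3), Hsd17b7 (0.5681, replicate 7), Tgm1 (0.577, replicate 5), Tgm3 (0.712, replicate 5). At E14 the highest tooth stood apart for Ambn (0.605, replicate 7), Anks4b (0.693, replicate 6), Csf1r (0.848, replicate 2), Cyp2t4 (0.676, replicate 1), Dlk1 (0.686, replicate 3), Edaradd (0.65, replicate 2), Fgf18 (0.757, replicate 3), Fos (0.571, replicate 7), Ibsp (0.814, replicate 7), Kcnj8 (0.604, replicate 6), Nr2f1 (0.684, replicate 3), Peg10 (0.5682, replicate 3), Sprr3 (0.805, replicate 6), Tnfrsf11b (0.589, replicate 1), and the lowest for Ctsk (0.586, replicate 2) and Tgm3 (0.576, replicate 4).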

How the results depend on the processing

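The counts of genes that rose and fell stayed within 1.5 times the reported 2870 and 2500 under every alternative but 1. With a change of at least 2-fold required, 1060 genes rose and 461 fell. Leaving out each tooth in turn gave 2755 to 3565 rises and 2039 to 3040 falls, with the highest of both without the deviating tooth. Sample quality weights in limma voom gave 3673 rises and 3382 falls, the E14 and E16 libraries alone 2456 and 1952, and the same libraries without the deviating tooth, an alternative added after the data were seen, 3161 and 3059. Teeth of an embryo summed gave 2590 and 1919. With the embryo number as a replicate block 2698 genes rose and 2110 fell. An embryo taken at E14 cannot also be taken at E16, so the numbers do not pair the same embryo across stages. The correlation of the deviations ran from -0.24 to 0.57 in 8 same-numbered pairs (median 0.13). In 41 other pairs it ran from -0.63 to 0.57 (median -0.07).

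Of 219 genes named with a test, 203 kept the same call under every alternative and none changed direction while called. Many of these genes were named for a low adjusted p or a large change in the same data. Their share therefore need not hold for all called genes. The calls of Alpl, Barx1, Fgf3, Fos, Mcm2, Myod1, Ndufa2 and Vwf were lost under at least 1 alternative, Fgf3 under DESeq2 alone and Mcm2 in the fit of the E14 and E16 libraries alone. Bmp4, Cdkn1b, Cdkn3, Col1a1, Col4a1, Mest, Runx2 and Sostdc1 gained a call under at least 1, without the deviating tooth in each case. Depth limits the low genes: a gene at 0 counts in the 7 E14 teeth could be at up to 0.0176 CPM. Several list counts moved by more than 1.5 times with the embryo number as a block or with the teeth of an embryo summed. Only the summed fit takes the embryo as the unit, and the tooth stays the unit in the block. With the embryo block 4 dentin genes, 3 osteoblast genes, 3 mesenchymal factors, 5 matrix proteases, 1 fibrillar collagen gene, 2 endothelial markers and 0 respiratory chain and mitochondrial genes rose, and 1 ribosomal gene, 1 pericyte or smooth muscle marker and 0 osteoclast genes fell. With teeth of an embryo summed 4 dentin genes, 3 mesenchymal factors, 2 Schwann cell markers, 1 fibrillar collagen gene, 1 red cell gene, 2 mitochondrial genes and 0 endothelial markers rose, and 1 ribosomal gene, 1 pericyte or smooth muscle marker and 0 osteoclast, skeletal muscle and salivary gland genes fell. The cause was not tested.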
